A study of Rattus norvegicus with 6 samples.

Results

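The 10 genes Apoa1, Apoa2, Apoa4, Apoa5, Apob, Apoc1, Apoc2, Apoc3, Apoe and Apoh encode apolipoproteins, and they were taken by their symbols from a table of 20104 rat genes. All 10 were found once in the table and all 10 passed the filter on low counts, among 13872 genes tested. The samples were rat livers on day 14 after a liver wound was treated with a haemostatic dressing, AKOC (3 libraries) or the control Quik-clot (3 libraries). All 6 livers were thus injured and dressed, and no untreated liver was analysed here. The labels do not expand AKOC, which belongs to a study of kaolin, a clotting clay, fixed on cotton. The labels used here name no strain, age, sex or hour of collection. They also do not say that each library came from its own animal, so a p-value here weighs only sample-to-sample spread, part of which may be technical.

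Apolipoproteins are the protein coats of the particles that carry fat and cholesterol in blood, and the liver makes most of them. Apob is the scaffold of very-low-density lipoprotein, which exports liver triglyceride, while Apoa1 and Apoa2 build high-density lipoprotein. The smaller members are exchanged between particles and steer lipoprotein lipase, the enzyme that unloads triglyceride, and the receptors that clear the remnants.

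Total counts ran from 40402312 to 41455378 per library. Quik-clot replicate 3 stood apart by A2m, a rat acute phase protein, at 2403 CPM against 5.29 to 91.5 CPM elsewhere. Orm1, another acute phase gene, was high there (11300 CPM) and in AKOC replicate 2 (8359 CPM), against 791 to 1811 CPM elsewhere. CPM are counts scaled to 1e+06 per library after trimmed-mean (TMM) scaling. The label liver was borne out by hepatocyte genes: the 9 markers together summed to between 124400 and 171900 unscaled CPM in each library, and Alb, which encodes albumin, took 7.02% to 11.7% of counts. Defining genes of intestinal epithelium, the other main source of apolipoproteins, were at or near 0, with at most 5 counts of Vil1, 1 of Cdx1, 2 of Cdx2 and 2 of Lct in any library. The 2 tested genes of that marker list, Fabp2 and Cdh17, were both higher on average after AKOC, as Apoa4 was. Fabp2, an intestinal fatty acid carrier, had 0.501, 2.31 and 1.38 CPM under Quik-clot against 1.55, 4.89 and 5.35 CPM under AKOC (log2 fold change 1.49 ± 0.62, unadjusted p = 0.0479, adjusted p = 0.394 in edgeR). Cdh17, a cadherin, had 29.4, 1.51 and 2.16 CPM against 7.05, 148 and 115 CPM (3.03 ± 1.39, adjusted p = 0.420 in edgeR). In AKOC replicate 2, where Cdh17 was highest, Vil1 had 3 counts and Cdx1, Cdx2 and Lct had 0. Fabp2 and Cdh17 both overlapped between the dressings, and their part in the Apoa4 difference was not tested.

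Of the 10 genes, Apoa4 alone separated the dressings. Its mRNA stood at 154, 133 and 356 CPM with Quik-clot, compared with 486, 508 and 931 CPM with AKOC. Every AKOC library was thus above every Quik-clot library, with AKOC replicate 3 the highest and Quik-clot replicate 3 the highest of the controls. The log2 fold change, AKOC over Quik-clot, was 1.58 ± 0.43 (SE), a 3.0-fold difference with a 95% interval from 1.48 to 6.09. The edgeR quasi-likelihood test gave an unadjusted p of 0.00784 and a Benjamini-Hochberg adjusted p of 0.306 over all genes, so Apoa4 did not pass the threshold of 0.05.

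The other 9 genes overlapped between the dressings and had unadjusted p-values from 0.158 (Apoc3) to 0.930 (Apoe) in the same fit. Of the 10, edgeR called 0 at an adjusted p under 0.05, where 0.0% of all genes were called, and the lowest adjusted p of any gene was 0.182. At an unadjusted p under 0.05 there was 1 apolipoprotein gene, against 12.5% of all genes tested (1732), of which 6.78% were higher and 5.7% lower after AKOC. Groups that did not overlap were likewise found in 1 of the 10, against 18.4% of all genes (9.53% higher and 8.84% lower). A log2 fold change at least as large as that of Apoa4, in either direction, was found in 1.64% of genes. The share of the family, 1 in 10, was thus near or under the background on both counts. DESeq2, run without the filter on low counts, called 274 of 20074 genes tested. Among them was 1 of the 10, Apoa4 (log2 fold change 1.58 ± 0.40, adjusted p = 0.00850). In contrast, limma-voom called 0 of 13872 genes.

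The direction over the family was mixed. There were 7 positive and 3 negative log2 fold changes with a median of 0.05, where 48.0% of all genes tested were positive and their median was -0.015. With library totals in place of the trimmed-mean scaling only 4 were positive, since Apoa2, Apoc2 and Apoe lie close to 0. In liver tissue, fewer hepatocytes and less apolipoprotein mRNA per hepatocyte cannot be told apart.

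**Figure D1:**
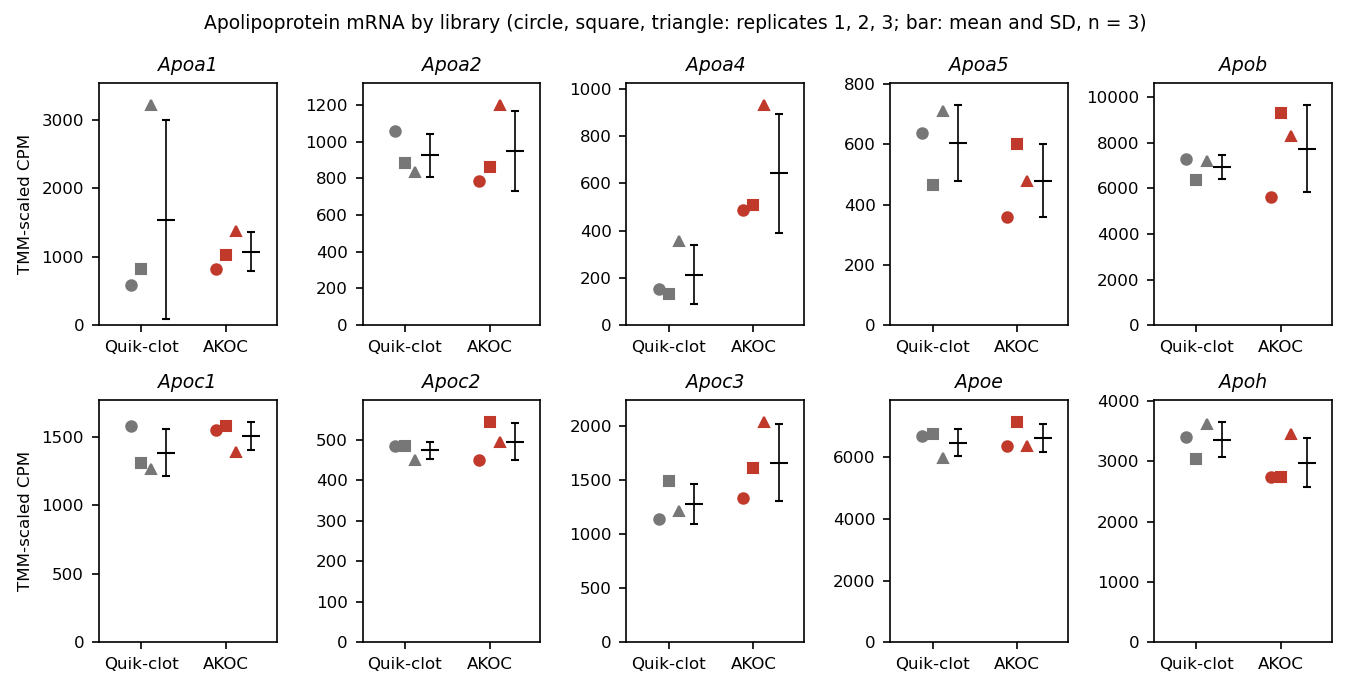
TMM-scaled CPM (vertical axes, from 0) of the 10 apolipoprotein genes in each Quik-clot and AKOC library; circles, squares and triangles are replicates 1, 2 and 3, and bars give the mean and SD of 3 libraries. Apoa4 is the gene whose AKOC libraries (486 to 931 CPM) all lie above the Quik-clot libraries (133 to 356 CPM), and Apoa1 has 1 Quik-clot library at 3214 CPM.

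Of all counts, the 10 genes together took 2.58%, 2.32% and 2.24% under Quik-clot, compared with 2.21%, 2.34% and 2.47% under AKOC. The group means were 2.38% ± 0.18 and 2.34% ± 0.13 (SD, n = 3), a difference smaller than the spread within either dressing. Per length, measured as FPKM (fragments scaled to transcript length and library total), Apoe was the most abundant member at 4910 ± 583 FPKM over all 6 libraries, rank 19 among all genes. Apoc1 followed at 3109 ± 492, Apoh at 2773 ± 387, Apoc3 at 2255 ± 438 and Apoa2 at 1808 ± 353 FPKM. Below them lay Apoa1 at 1415 ± 935, Apoc2 at 969 ± 94.4, Apob at 518 ± 69.8, Apoa4 at 293 ± 192 and Apoa5 at 291 ± 65.2 FPKM.

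Apoe exceeded Apoc1, and Apoc2 exceeded Apob, in 6 of 6 libraries. Apoc1 exceeded Apoh, Apoh exceeded Apoc3 and Apoa1 exceeded Apoc2 in only 4 of 6 each, so these neighbours in the order were not separated beyond their spread. Apoc3 exceeded Apoa2, Apoa2 exceeded Apoa1 and Apob exceeded Apoa4 in 5 of 6. The lowest pair changed places with the dressing: Apoa5 was above Apoa4 in the 3 Quik-clot libraries and below it in the 3 AKOC libraries. Apoa4 made up 0.81% ± 0.41 of the summed FPKM of the 10 genes after Quik-clot and 2.39% ± 0.74 after AKOC.

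**Figure D2:**
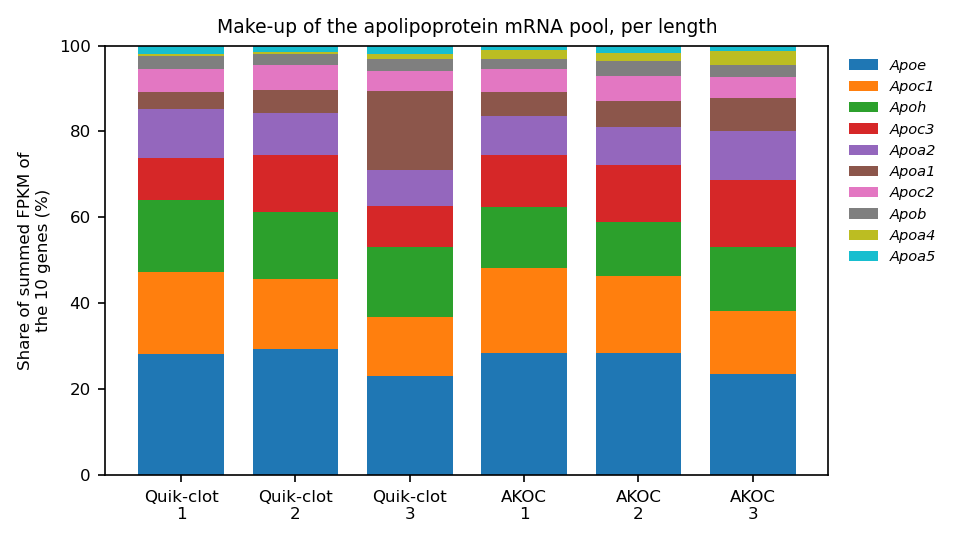
Share of each gene (stacked colours) in the summed FPKM of the 10 apolipoprotein genes, in percent, for each of the 6 libraries. Apoe, Apoc1, Apoh and Apoc3 fill most of every bar, Apoa1 takes 18.6% in Quik-clot replicate 3 against 3.74% to 7.66% in the other libraries, and Apoa4 is a thin band that is wider in the AKOC libraries.

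Apoa1, Apoc3, Apoa4 and Apoa5 lie next to each other, in this order, on chromosome 8 of the rat GRCr8 assembly, with no other protein-coding gene between them. The encoded proteins act on the same particles in different ways. Apoa4 (gene ID 25080) is made by intestine and, in rodents, by liver, and travels on triglyceride-rich particles and high-density lipoprotein. Apoa5 (gene ID 140638), made by hepatocytes, promotes triglyceride breakdown by lipoprotein lipase, and Apoc3 (gene ID 24207) slows that breakdown and the uptake of remnants. Apoa1 (gene ID 25081) is the main protein of high-density lipoprotein and activates the cholesterol-esterifying enzyme Lcat.

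The bases just upstream of Apoa4 and Apoa5 are shown because the log2 fold changes of these neighbours differed in sign. For Apoa5 the dressings overlapped, so its sign is uncertain. Both runs of bases come from RefSeq on GRCr8, plus strand, at chr8:55435529-55435778 and chr8:55457621-55457870. RefSeq promoters were matched for 6 of the 10 genes (Apoa4, Apoa5, Apoc1, Apoc2, Apoe and Apoh), and for Apoa5 the more upstream of its start sites is printed. Each run covers the 250 bases before the annotated start, 5′ to 3′.
Apoa4: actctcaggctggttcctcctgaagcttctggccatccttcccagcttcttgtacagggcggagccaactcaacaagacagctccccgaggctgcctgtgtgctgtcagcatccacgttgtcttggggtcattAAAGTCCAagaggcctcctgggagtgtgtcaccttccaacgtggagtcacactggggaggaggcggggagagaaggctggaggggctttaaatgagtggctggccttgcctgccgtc
Apoa5: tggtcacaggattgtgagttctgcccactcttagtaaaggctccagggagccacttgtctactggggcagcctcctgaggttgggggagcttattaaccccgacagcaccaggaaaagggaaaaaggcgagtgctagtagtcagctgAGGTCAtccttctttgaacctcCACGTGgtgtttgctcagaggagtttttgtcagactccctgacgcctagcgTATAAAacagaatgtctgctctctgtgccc
Capitals mark matches to 4 motifs searched on both strands: TATAAA (a core promoter box), AGGTCA (single site of nuclear receptors), AAAGTCCA (part of the HNF4 motif) and CACGTG (E-box, read by clock and MYC family factors). No match overlapped another. The Apoa4 window held AAAGTCCA, which occurs in 1.19% of 33469 RefSeq promoter windows of the same length, and none of the other motifs. The Apoa5 window held AGGTCA, found in 14.1% of windows, then CACGTG, found in 5.59%, and TATAAA, found in 12.9%. Motif matches are a description of letters and say nothing of binding in these livers.

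Apoa5 stood at 636, 463 and 710 CPM under Quik-clot against 359, 601 and 477 CPM under AKOC. The groups overlapped, with the lowest value in AKOC replicate 1 and the highest in Quik-clot replicate 3. Its log2 fold change was -0.33 ± 0.24 (95% interval -0.90 to 0.23, adjusted p = 0.586 in edgeR).

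Apoc3 had 1140, 1493 and 1221 CPM under Quik-clot against 1334, 1618 and 2038 CPM under AKOC. AKOC replicates 2 and 3 lay above all controls, while AKOC replicate 1 lay below Quik-clot replicate 2. The edgeR log2 fold change was 0.37 ± 0.24, with a 95% interval from -0.18 to 0.93 and an adjusted p of 0.536.

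Apoa1 was set by a single library. It measured 590, 822 and 3214 CPM under Quik-clot against 814, 1023 and 1376 CPM under AKOC. Quik-clot replicate 3 lay above all AKOC libraries, whereas Quik-clot replicate 1 lay below them and replicate 2 just above the lowest. Its log2 fold change of -0.53 ± 0.62 (95% interval -1.98 to 0.93, adjusted p = 0.740 in edgeR) became 0.60 ± 0.28 without Quik-clot replicate 3 (unadjusted p = 0.0750, adjusted p = 0.539). In that library the list of 14 acute phase proteins had its highest median, 0.96 in log2 CPM against the mean of all 6 libraries, with -0.64 to 0.39 in the others. The value of 0.39 was in AKOC replicate 2, where Apoa1 had 1023 CPM. The part of the acute phase in the Apoa1 level was not tested.

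Apoa4 also had its highest control value in Quik-clot replicate 3. Without that library its log2 fold change was 2.16 ± 0.33 (unadjusted p = 0.000474, adjusted p = 0.346). Leaving out any other library gave 1.22 to 1.75, the lowest without AKOC replicate 3.

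Ratios of FPKM within a library do not depend on how libraries are scaled. The Apoa4 to Apoa1 ratio was 0.162, 0.101 and 0.0690 after Quik-clot and 0.373, 0.310 and 0.422 after AKOC. Against Apoc3 the Apoa4 ratio was 0.0615, 0.0406 and 0.133 after Quik-clot and 0.166, 0.144 and 0.209 after AKOC. Against Apoa5 it was 0.314, 0.372 and 0.651 after Quik-clot and 1.76, 1.1 and 2.54 after AKOC. The dressings did not overlap in any of the 3 ratios. These share Apoa4 as numerator, whose own groups did not overlap, so they restate its difference per neighbour and are not separate evidence for it.

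The exact two-sided permutation p of each Apoa4 ratio was 0.1, the smallest that 3 against 3 libraries can give, and 0.367 after Benjamini-Hochberg adjustment over the 11 ratios computed. The log2 differences were 1.81 for Apoa1, 1.30 for Apoc3 and 2.0 for Apoa5. The Apoa1 to Apoc3 ratio, in contrast, was 0.379, 0.403 and 1.93 after Quik-clot and 0.447, 0.463 and 0.495 after AKOC (exact permutation p = 1.0). Outside Quik-clot replicate 3 that ratio kept within 0.379 to 0.495, a narrow range for genes whose own levels varied more.

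**Figure D3:**
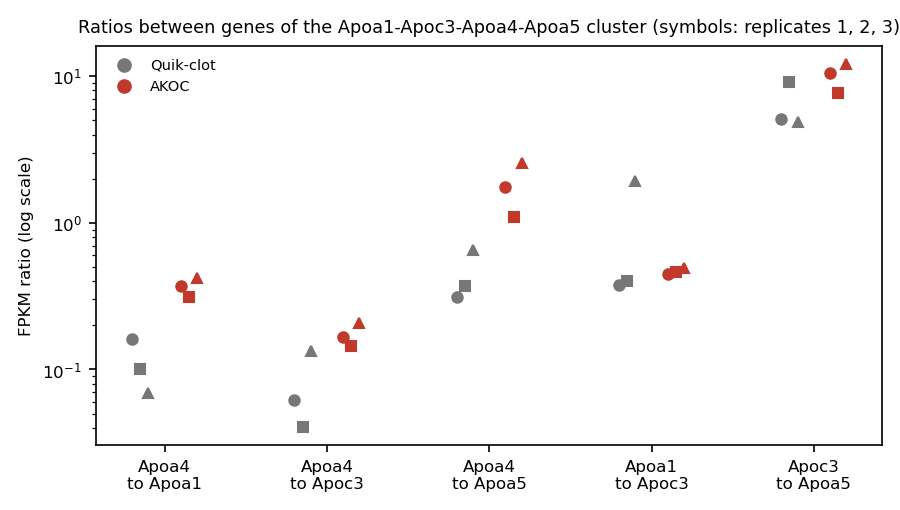
Ratios of FPKM (log scale) between genes of the chromosome 8 cluster in the Quik-clot (grey) and AKOC (red) libraries; circles, squares and triangles are replicates 1, 2 and 3. The ratios with Apoa4 on top separate the dressings, whereas Apoa1 to Apoc3 lies between 0.379 and 0.495 in all but Quik-clot replicate 3 (1.93).

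The genes that flank the cluster were measured too. Sik3, Pafah1b2, Sidt2, Tagln and Pcsk7 on the Apoa1 side had log2 fold changes from -0.20 to -0.12. On the Apoa5 side Zpr1 had -0.33 ± 0.17 and Bud13 -0.30 ± 0.24, and farther out Cadm1 had 0.02 ± 0.16. None had an unadjusted p under 0.05 in edgeR, the lowest being 0.0886 for Zpr1.

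Apob (gene ID 54225) encodes the protein that each very-low-density lipoprotein particle carries as its core. Its mRNA stood at 7299, 6346 and 7188 CPM under Quik-clot against 5610, 9310 and 8280 CPM under AKOC. The AKOC libraries held both the lowest and the highest value, and their coefficient of variation was 24.7% against 7.50% after Quik-clot. The log2 fold change was 0.16 ± 0.41 (95% interval -0.82 to 1.13, adjusted p = 0.891 in edgeR). The width of that interval depends on the method: the SE was 0.27 with the legacy quasi-likelihood method and 0.22 with DESeq2.

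Apoa2 (gene ID 25649), the second protein of high-density lipoprotein, had 1059, 885 and 836 CPM under Quik-clot against 787, 863 and 1200 CPM under AKOC. These ranges overlapped, and AKOC replicates 1 and 3 were the lowest and the highest of all 6. Its log2 fold change was 0.04 ± 0.22, with a 95% interval from -0.47 to 0.55.

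Apoc2, Apoc1 and Apoe form the other gene cluster, on chromosome 1, where Apoc4 lies between Apoc2 and Apoc1. Apoe (gene ID 25728) is the ligand by which remnants are taken up by liver receptors such as Lrp1, and macrophages make it as well as hepatocytes. Apoc2 (gene ID 292697) is the cofactor that lipoprotein lipase requires, and Apoc1 (gene ID 25292) hinders remnant uptake. These were the steadiest members over the 6 libraries.

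Apoe had 6681, 6748 and 5973 CPM under Quik-clot against 6367, 7129 and 6351 CPM under AKOC. Apoc2 had 486, 486 and 450 CPM under Quik-clot against 450, 543 and 493 CPM under AKOC. For Apoc1 the values were 1576, 1310 and 1260 CPM under Quik-clot against 1545, 1577 and 1390 CPM under AKOC. The dressings overlapped for all 3 genes, though Quik-clot replicates 2 and 3 lay below all AKOC libraries for Apoc1, and AKOC replicates 2 and 3 lay above all Quik-clot libraries for Apoc2. For Apoe, Quik-clot replicate 3 was the lowest and AKOC replicate 2 the highest. These genes had coefficients of variation over all 6 libraries of 6.11% (Apoe), 7.07% (Apoc2) and 9.80% (Apoc1).

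The log2 fold changes were 0.03 ± 0.36 for Apoe, 0.07 ± 0.14 for Apoc2 and 0.12 ± 0.20 for Apoc1. Their 95% intervals reached from -0.82 to 0.88, from -0.25 to 0.38 and from -0.34 to 0.58. The interval of Apoe is wide for a gene of such even levels, and it depends on the method: the SE was 0.22 with the legacy quasi-likelihood method and 0.13 with DESeq2. The Apoc2 to Apoe ratio of FPKM held between 0.189 and 0.207 in all 6 libraries, and the Apoc1 to Apoe ratio between 0.556 and 0.695.

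Macrophage and Kupffer cell markers, which bear on Apoe, had 10 of 11 negative log2 fold changes (median -0.28), where 48.0% of all genes tested were positive. At an unadjusted p under 0.05 in edgeR there were 2 of the 11, both lower after AKOC. Of all genes, 12.5% were under that limit, 5.7% being lower. Their summed level ran from 1235 to 2031 unscaled CPM after Quik-clot and from 886 to 1471 after AKOC. Cd163, a scavenger receptor, had -0.51 ± 0.15 and Csf1r, the receptor for macrophage growth factor, -0.59 ± 0.23. In the same list Clec4f had -0.06 ± 0.19 and Timd4, the positive one, 0.22 ± 0.53. The part of macrophages in the Apoe level was not tested.

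Apoh (gene ID 287774), known as beta-2-glycoprotein I, binds negatively charged phospholipids and takes part in the control of clotting. It stood at 3410, 3045 and 3617 CPM under Quik-clot against 2748, 2734 and 3456 CPM under AKOC. AKOC replicates 1 and 2 were the lowest, but AKOC replicate 3 lay within the control range. The log2 fold change was -0.17 ± 0.27 (95% interval -0.80 to 0.46, adjusted p = 0.809 in edgeR).

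**Figure D4:**
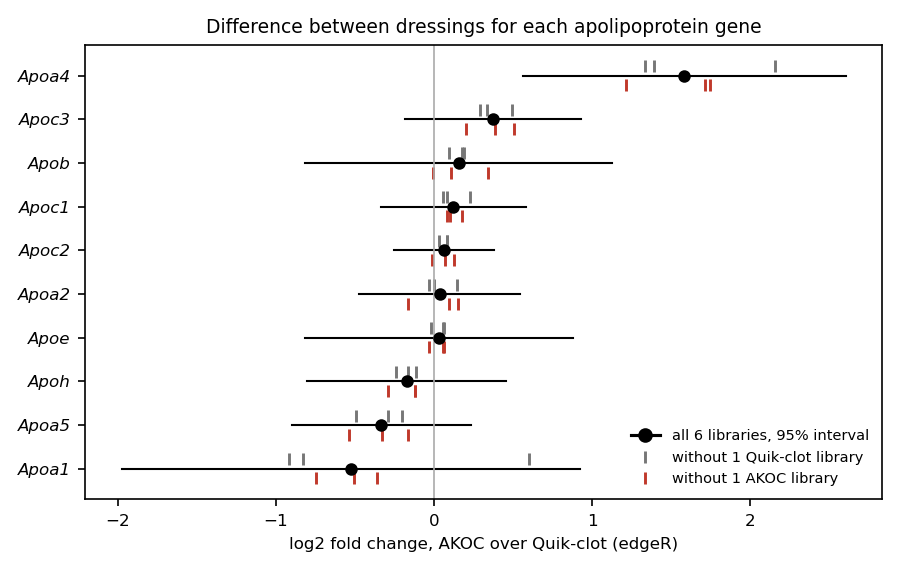
AKOC over Quik-clot log2 fold changes of the 10 apolipoprotein genes (black points, with 95% intervals from edgeR), and the same value after leaving out 1 Quik-clot library (grey ticks) or 1 AKOC library (red ticks). The Apoa4 interval (0.56 to 2.61) is the one that does not cross 0 before adjustment, and Apoa1 moves from -0.53 to 0.60 without Quik-clot replicate 3.

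The genes with patterns nearest to Apoa4 were Rnf125, a ubiquitin ligase, the clock activator Bmal1 and Inhba, a subunit of activin. Likeness was the root mean square difference of centred log2 CPM over the 6 libraries among 7072 genes of at least 10 CPM, and it was 0.39, 0.43 and 0.44. Their log2 fold changes were 1.70 ± 0.41, 1.96 ± 0.26 and 1.49 ± 0.29, and none was called by edgeR. Bmal1 had 7.88, 6.33 and 9.67 CPM under Quik-clot against 20.6, 36.7 and 35.8 CPM under AKOC, so its groups did not overlap either. Groups that did not overlap were found in 18.4% of all genes. These genes were picked for their likeness to Apoa4 in the same libraries. Their similar values follow from that choice and are not separate evidence of a link.

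Other apolipoproteins and proteins of high-density lipoprotein had 11 of 12 listed genes tested, with 5 positive, 6 negative and a median log2 fold change of -0.03. A single one, Apon, had an unadjusted p under 0.05, higher after AKOC (0.45 ± 0.17, 101, 100 and 113 against 157, 108 and 163 CPM). The antioxidant esterases Pon1 (0.33 ± 0.23) and Pon3 (0.26 ± 0.19) and the receptor Apobr (-0.80 ± 0.37) did not reach it. Apoc4, within the Apoe cluster, had -0.20 ± 0.18, and Apom, a carrier of sphingosine phosphate, -0.08 ± 0.11.

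Genes of lipoprotein assembly and secretion had 7 of 12 positive values with a median of 0.09. Tm6sf2, which helps to load lipid onto very-low-density lipoprotein, was at 15.9, 11.2 and 15.4 CPM under Quik-clot against 18.7, 32.1 and 27.0 CPM under AKOC. Its groups did not overlap, with a log2 fold change of 0.87 ± 0.23 and an unadjusted p of 0.00588 (adjusted p = 0.295 in edgeR). It was the only one of the 12 under 0.05. Mttp, the lipid transfer protein that starts particle assembly on Apob, had 0.14 ± 0.23, the export receptor Surf4 0.29 ± 0.17, Cideb 0.15 ± 0.12 and the Apob mRNA editing enzyme Apobec1 -0.31 ± 0.23.

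Lipolysis and remodelling genes were split 4 to 4 among 8 tested of 10. Hepatic lipase, Lipc, had 182, 182 and 89.6 CPM under Quik-clot against 229, 227 and 330 CPM under AKOC. No control reached the AKOC range, and the log2 fold change was 0.79 ± 0.29 (unadjusted p = 0.0296, adjusted p = 0.365 in edgeR). Lpl, lipoprotein lipase itself, had -0.48 ± 0.26 and the phospholipid transfer protein Pltp -0.19 ± 0.14, both at an unadjusted p above 0.05. Lpl had 6.64, 6.74 and 12.2 CPM under Quik-clot against 6.51, 5.53 and 6.31 CPM under AKOC, so its groups did not overlap either, in the lower direction. However, the lowest control and the highest AKOC library were nearly level, and Quik-clot replicate 3 stood well above the other controls.

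Lipoprotein receptors and lipid exporters were the list with the lowest median of these 5, at -0.30, with 10 of 15 negative. Sdc1, a heparan sulfate proteoglycan that binds remnants, was lower after AKOC at an unadjusted p of 0.0179 (-0.47 ± 0.15, adjusted p = 0.334 in edgeR). Vldlr, a receptor for triglyceride-rich particles, had -0.76 ± 0.34, with 1.44, 1.26 and 1.86 CPM under Quik-clot against 0.674, 1.25 and 0.756 CPM under AKOC. Its groups did not overlap, although Quik-clot replicate 2 and AKOC replicate 2 were nearly level.

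Transcription regulators of apolipoprotein genes had 8 of 16 positive, a median of -0.01, and 4 at an unadjusted p under 0.05, 3 of them lower after AKOC. Hnf4a, a nuclear receptor that drives most hepatic apolipoprotein genes, stood at 474, 439 and 483 CPM under Quik-clot against 372, 311 and 369 CPM under AKOC (-0.41 ± 0.13, unadjusted p = 0.0177). Nr5a2 had -0.39 ± 0.10 and the fatty acid sensor Ppara -0.63 ± 0.21, also without overlap. Srebf1, the regulator of fat synthesis, was higher, with 89.9, 165 and 76.8 against 179, 213 and 297 CPM (1.05 ± 0.32). Creb3l3, an activator of Apoa4 in mouse liver, had -0.16 ± 0.13 and overlapped between dressings. None was called by edgeR over all genes.

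**Figure D5:**
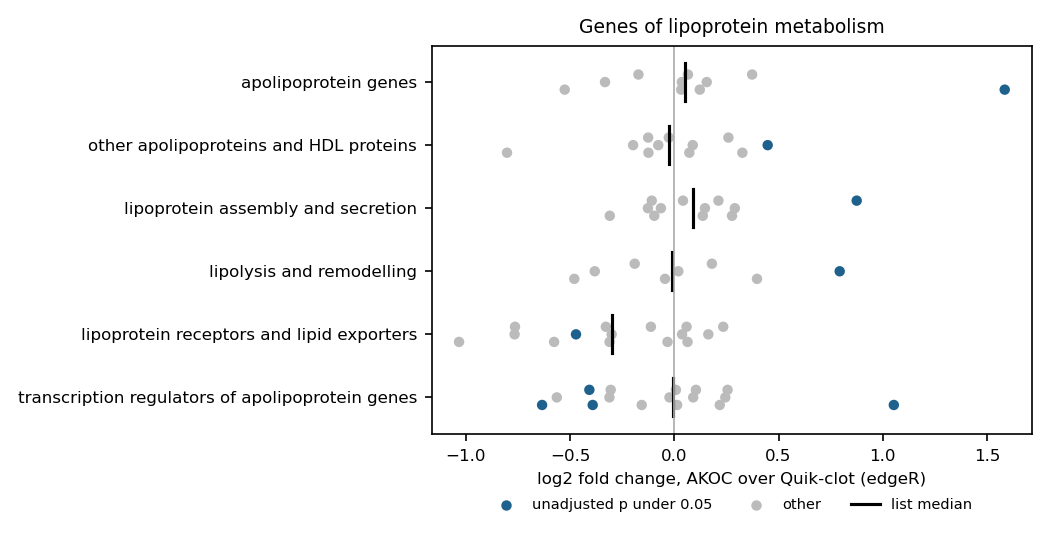
AKOC over Quik-clot log2 fold changes of single genes (points) in the apolipoprotein family and in 5 lists of lipoprotein genes; blue points have an unadjusted p under 0.05 and black lines are list medians. Apoa4 is the blue point at 1.58 in the top row, far from the other 9 apolipoprotein genes, and the receptor list has its median at -0.30.

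Lipogenic and clock genes were set beside Apoa4, and edgeR called 0 genes in either list at an adjusted p under 0.05. All 11 lipogenic genes had positive values with a median of 0.81, 8 of them at an unadjusted p under 0.05, such as Scd (5.29 ± 0.89) and Pklr (1.82 ± 0.34). The median of that list, in log2 CPM against the mean of all libraries, was -1.0, -0.20 and -0.55 after Quik-clot. After AKOC it was 0.23, 0.44 and 1.12, highest in replicate 3 as for Apoa4. Among the controls, however, it was highest in replicate 2, where Apoa4 was lowest at 133 CPM. Among 12 clock genes, 3 were higher and 8 lower at an unadjusted p under 0.05, with Dbp at -2.20 ± 0.37. The part of either gene group in the Apoa4 difference was not tested.

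Cell type markers were read against the 12.5% of all genes with an unadjusted p under 0.05. Hepatocyte markers had 4 of 9 positive and 0 under 0.05, with Cyp2e1 at -1.06 ± 0.47, Ttr at 0.70 ± 0.35, Tat at -0.49 ± 0.38, Cps1 at -0.41 ± 0.36 and Alb at 0.37 ± 1.55. The SE of Alb is wide for a gene whose levels ran only from 62630 to 122900 CPM. Stellate cell and fibroblast markers had 2 of 9 higher (Lum and Pdgfrb), sinusoidal endothelial markers 2 of 7 lower (Lyve1 and Pecam1), and T and NK cell markers 3 of 6 lower (Cd247, Gzma and Prf1). All 7 endothelial values were negative, with a median of -0.26, as were all 6 T and NK cell values, with a median of -1.01. Quik-clot replicate 2 had the highest T and NK cell median, 1.31 in log2 CPM against the mean of all libraries. The other controls had -0.01 and -0.12, and the AKOC libraries -0.44, -0.18 and -0.54. Levels were low in this list, with Cd247 at 0.261 to 1.44 CPM. Stellate cell values were positive in 5 of 9, with a median of 0.36. The 4 negative ones were Dcn (-0.99 ± 0.48), Col1a1 (-1.04 ± 0.69), Rgs5 (-0.40 ± 0.36) and Acta2 (-0.13 ± 0.18). Lum was low too, at 0.261 to 3.86 CPM. The part of these cell types in the apolipoprotein levels was not tested. Cholangiocyte markers had 1 of 4 lower (Spp1), intestinal epithelium markers 1 of 2 higher (Fabp2) and positive acute phase proteins 0 of 14, with 12 of them negative. Quik-clot replicate 3 alone had a high acute phase median, 0.96 in log2 CPM against the mean of all libraries. The other controls had -0.64 and -0.34, and the AKOC libraries -0.20, 0.39 and -0.33. edgeR called 0 genes in each of these lists.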

How the data were processed

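The authors deposited whole-number read counts per gene and FPKM for the same 6 libraries. Per the submitters' processing notes, fastp, HISAT2 and HTSeq were used with the mRatBN7.2 build, with versions and strand setting not given in the sources used here. The deposited FPKM equalled count over length and library total, with a largest relative difference of 8.58e-07. Both tables thus hold the same measurement, and FPKM served to compare levels between genes.

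Genes were kept by filterByExpr (minimum count 10, minimum total 15). The main test was the quasi-likelihood test of edgeR 4.0.16 (R 4.3.3; bias-adjusted method), TMM scaling, two-sided, dressing as the only term, Benjamini-Hochberg over 13872 genes. The SE is the log2 fold change over the square root of F. DESeq2 1.42.0 and limma 3.58.1 (voom with sample weights, and limma-trend on log2(FPKM + 1) or log2(FPKM + 0.1)) were alternatives, and log2 CPM used a prior count of 2. The tests were also run on simulated counts, drawn without an outlying library, and the outcome is not reported here. The smallest member count was 5788, so counting error was at most 1.31%, for counting only.

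Members, lists, motifs and ratios were chosen with earlier results of these data known. The rule named all 10 members, Alb, up to 4 genes of smallest unadjusted p per list, and the 3 genes nearest to members at an unadjusted p under 0.05. Apoc4, Apom, Mttp, Creb3l3 and the cluster's flanking genes were added after their values were seen. Libraries of a dressing all differed by more than sampling noise (chi-square per degree of freedom at least 145). Reads of overlapping genes may have been split by the counting. A few genes that the rule named are not reported here.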

Additional observations from a re-analysis of the deposited data

How the results depend on the processing

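Apoa4 kept its positive sign and an unadjusted p under 0.05 in all 16 alternatives, with log2 fold changes from 1.22 to 2.16, and passed the adjusted threshold in DESeq2 alone (adjusted p = 0.00850; range over the alternatives 0.00850 to 0.644). Genes called over the whole table numbered 274 with DESeq2, 1 with the replicate block and 0 to 18 when a library was left out (18 without the second Quik-clot library, 10 without the first and 2 without the second AKOC library). Members called numbered 1 with DESeq2 and 0 to 0 when a library was left out. Positive members numbered 4 with library totals only and 4 in both limma-trend fits on FPKM, and 4 to 7 when a library was left out (4 without AKOC replicate 2). The summed share differed by -0.11 to 0.06 percentage points when a library was left out, within the spread of replicates.

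Signs turned for log2 fold changes near 0, and for some larger ones without Quik-clot replicate 3. Apoa2 was -0.061 with library totals and -0.056 in both FPKM fits, and -0.17 to 0.15 when a library was left out. Apoc2 was -0.025 with library totals, -0.013 in both FPKM fits and -0.012 to 0.13 with a library left out. Apoe was -0.055 with library totals, -0.042 in both FPKM fits and -0.030 to 0.064 with a library left out. Left-out libraries gave -0.0071 to 0.34 for Apob (lowest without AKOC replicate 2) and -0.059 to 0.34 for Epcam. Without Quik-clot replicate 3 the highest values were reached by Apoa1 (-0.91 to 0.60), Tat (-0.75 to 0.084), A2m (-4.29 to 1.75), Lcn2 (-7.0 to 2.59) and Serpina3n (-1.06 to 0.17). The cause was not tested.

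The labels do not say that replicate numbers pair the samples. Same-numbered libraries had correlations of deviations from the group means of -0.07, -0.08 and -0.20, and other pairs had -0.10 to 0.17. With 3 libraries per dressing these values cannot decide whether samples were paired. With the replicate block Apoa4 was 1.66 ± 0.18 (adjusted p = 0.279). Leaving out a library leaves a dressing with 2.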
